A study of Mus musculus with 8 samples.

Results

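The muscle splicing regulators are the RNA-binding proteins that choose which exons of sarcomere and calcium-handling transcripts are kept in heart and skeletal muscle, and 10 of their genes were followed in hearts of mouse embryos at E18.5: *Rbm20*, *Rbm24*, *Rbfox1*, *Rbfox2*, *Mbnl1*, *Mbnl2*, *Celf1*, *Celf2*, *Srsf1* and *Ptbp1*. They were chosen by name, and every probe whose transcript accession belongs to 1 of them was kept, which gave 21 of the 41174 probes of the array and 10 of the 19096 genes that could be named. Each gene has 2 probes except *Celf1* and *Celf2*, with 3 each, and *Rbfox1*, with 1. The hearts came from 4 WT embryos and 4 SIRT1 KO embryos of the C57BL/6 strain by the labels (C57BL/6J in the methods), 1 heart per array. SIRT1 is an NAD-dependent protein deacetylase, and the knockout is a germ-line deletion in the whole body, restricted to no cell type. Per the labels, the mice had a chow diet and no treatment. Per the methods, heterozygous parents were crossed and hearts of both sexes were used. Nothing says which embryos shared a litter, and p-values measure the spread between these hearts.

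Exon choice in striated muscle shifts between fetal and adult life. Proteins of the MBNL and RBFOX families favor many adult exons, CELF proteins oppose MBNL at many of the same transcripts and hold fetal forms, RBM20 and RBM24 act chiefly in heart and skeletal muscle, and SRSF1 and PTBP1 act in most cells, with PTBP1 keeping muscle exons out. A change in the amount of such a protein, in its place in the cell or in its own exons can each alter splicing, and an array probe reads only the transcript that carries its sequence.

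Signals are given as log2 of the spot intensity relative to the 75th percentile of the array, so that 0 is that percentile itself, and fold changes are the SIRT1 KO mean minus the WT mean on that scale. In intensity units the 75th percentile was 939 to 1033 on WT arrays and 777 to 906 on the others, with no saturated spot. Each genotype was hybridized on a slide of its own, scanned on a day of its own, and the effects of slide or scan day and of genotype cannot be told apart. The targeted gene went against its label on 1 of its probes: *Sirt1* A_52_P358612 was higher by 0.54 (standard error 0.11, adjusted p = 0.0323 from limma) and A_51_P141152 differed by -0.11 (adjusted p = 0.589), and it is not known here whether either lies in the deleted part. The knockout arrays are therefore called hearts labelled SIRT1 KO. All 15 cardiomyocyte markers were well above background, and their summed signal was 2177 to 2368 times the 75th percentile in the WT hearts and 2291 to 2665 times in the hearts labelled SIRT1 KO.

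None of the 21 probes differed between the genotypes past the threshold. The limma fit took in the 25615 probes that rose well above background on 4 or more arrays. In it 0 of the 21 had an adjusted p under 0.05, against 4.88% of all tested probes (3.97% higher and 0.91% lower), and the 21 adjusted p-values ran from 0.0824 to 0.926. At an unadjusted p under 0.05 there were 3 of 21, or 14.3%, against 21.5% of all probes. The genotypes did not overlap on 3 of 21 probes, again 14.3%, against 13.7% of all probes, with 2 of them higher (8.63% of all probes) and 1 lower (5.11%). The methods' analysis of variance called 0 of the 21, against 2.13% of all probes. By direction, 9 probes (42.9%) had a mean above WT, against 51.7% of all probes, and 12 had a mean below it, with a median fold change of -0.03 on the log2 scale against 0.01 for all tested probes. With arrays scaled on their median, which put the median of all probes at -0.12, 5 probes were above WT, and with no scaling, at -0.21, 3 were. The share of higher probes among all calls was 81.4% as reported, 35.5% with median scaling and 10.1% with no scaling. The median size of the difference, without its sign, was 0.08 against 0.13. All 21 probes passed the filter on low signal, and 20 of them were well above background on all 8 arrays.

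The 4 hearts per genotype set the precision. On the brightest probe of each gene the fold changes lay between -0.08 and 0.22, 4 of the 10 above 0 (40%, against 48.4% of all genes), and all 10 of their 95% confidence intervals lay within -0.31 and 0.44, a ratio of 0.809 to 1.36. Over all 21 probes the intervals ran from -0.54 (*Rbfox2* A_52_P528592) to 1.04 (*Mbnl1* A_52_P140981), a ratio of 0.690 to 2.06, and these intervals take the scaling of the arrays as given. The within-genotype SD of the 21 probes had a median of 0.12, against 0.15 for all tested probes. In whole hearts, fewer cells of a type and less RNA per cell cannot be told apart.

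**Figure D1:**
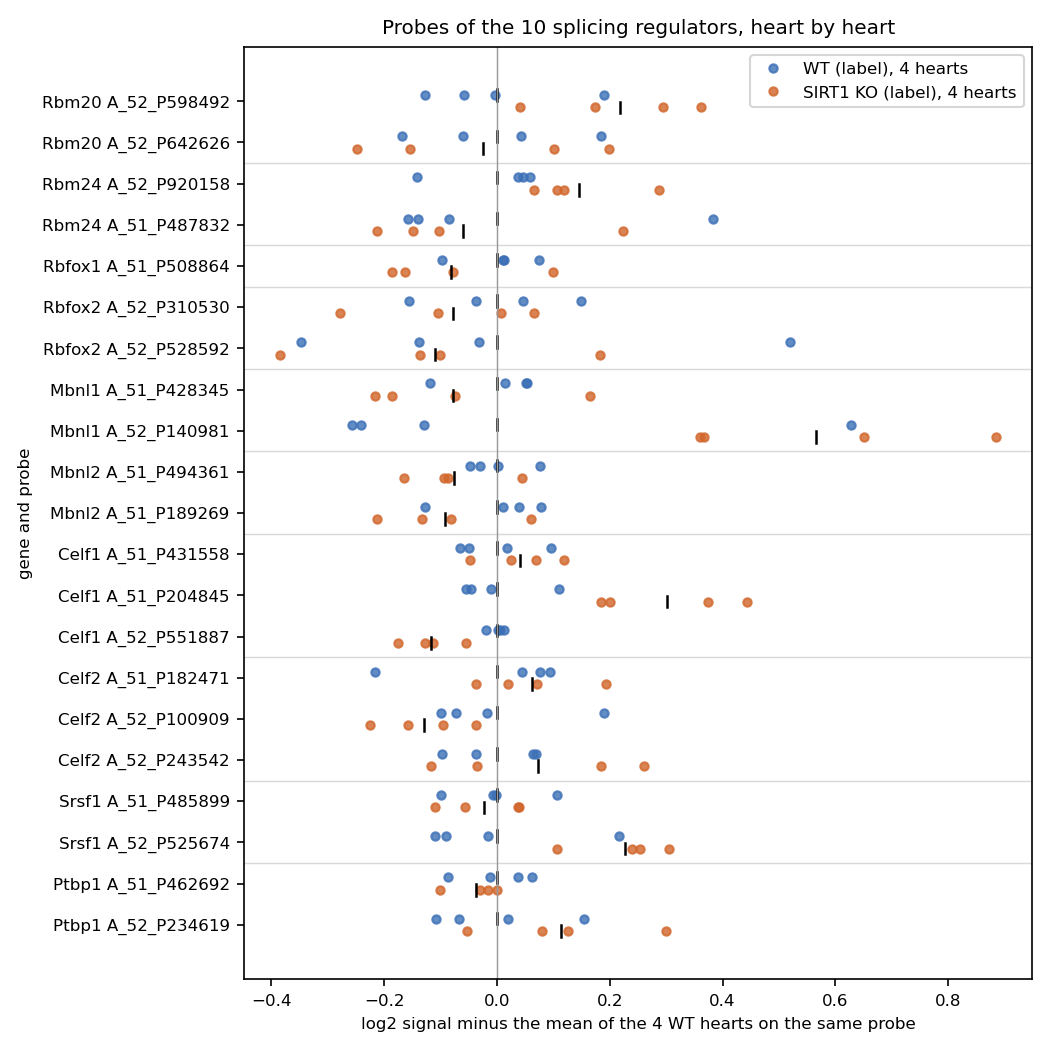
Signal of each of the 21 probes in each heart, as the log2 signal minus the mean of the 4 WT hearts on that probe; blue and orange points are single WT hearts and hearts labelled SIRT1 KO, and black ticks are group means. Only *Rbm24* A_52_P920158, *Celf1* A_51_P204845 and *Celf1* A_52_P551887 have genotypes that do not overlap.

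**Figure D2:**
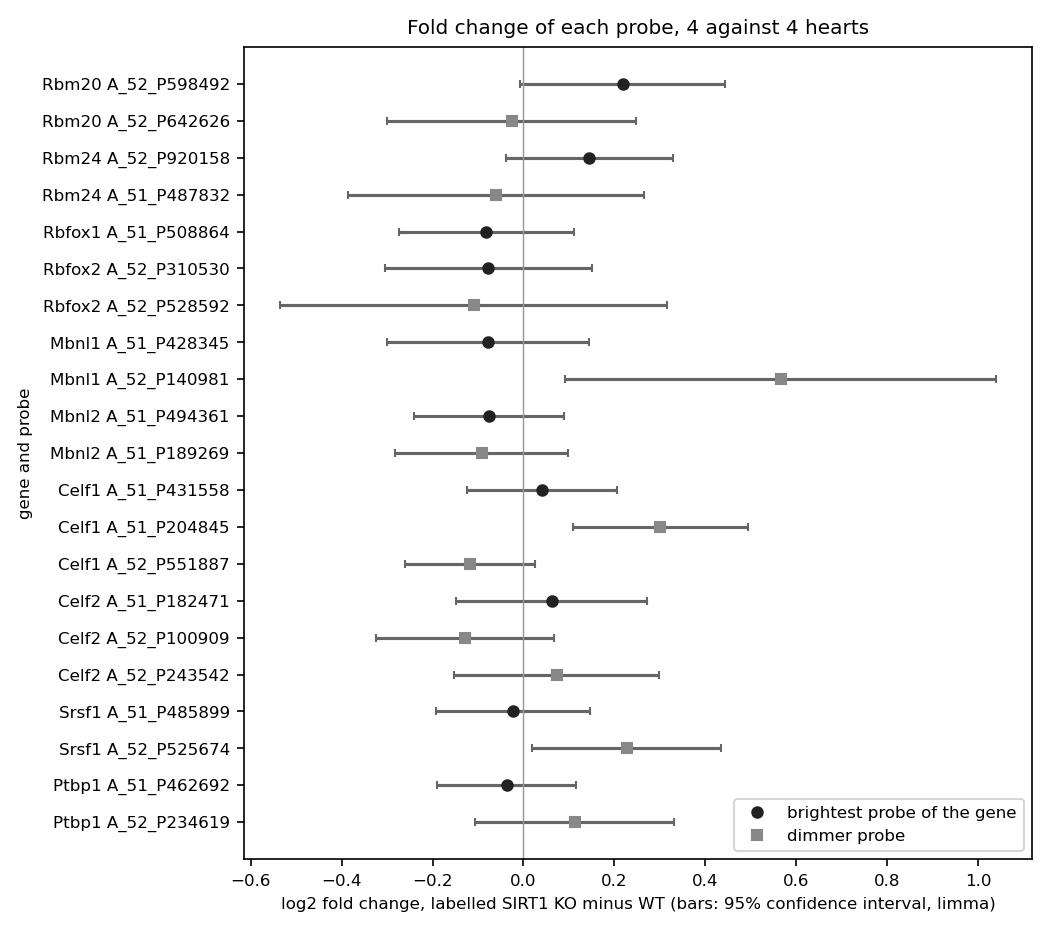
Fold change of each probe on the log2 scale, hearts labelled SIRT1 KO minus WT, with the 95% confidence interval from limma as bars; dark circles mark the brightest probe of a gene and grey squares its dimmer probes. The intervals that leave out 0 are those of *Mbnl1* A_52_P140981, *Celf1* A_51_P204845 and *Srsf1* A_52_P525674, and each belongs to a dimmer probe.

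*Rbm20* encodes the nuclear protein that removes exons from titin and from other cardiac transcripts, and *Rbm24* a muscle protein that promotes exon inclusion during heart development. The brighter *Rbm20* probe (A_52_P598492) read 2.34, 2.27, 2.39 and 2.59 in the WT hearts and 2.76, 2.57, 2.44 and 2.69 in the hearts labelled SIRT1 KO. Of these, 2 of the latter lay above every WT heart and the groups overlapped. The difference was 0.22 (standard error 0.10, adjusted p = 0.246 from limma), with 95% confidence limits of -0.01 and 0.44. This was the largest fold change by size among the 10 brightest probes with the scaling used. With median scaling it was 0.0850, against -0.2145 on the *Rbfox1* probe, and with no scaling it was -0.0017. The other *Rbm20* probe (A_52_P642626) gave -0.98 ± 0.15 (SD, n = 4) and -1.01 ± 0.21 (SD, n = 4), with full overlap. Titin (*Ttn*), the giant spring protein whose exons RBM20 removes, differed by 0.47 (standard error 0.16, adjusted p = 0.137) on its brightest probe. Its other probes are not reported here, so this value does not bear on its exons.

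The brighter *Rbm24* probe (A_52_P920158) read 4.57, 4.37, 4.55 and 4.56 in the WT hearts and 4.80, 4.62, 4.63 and 4.58 in the hearts labelled SIRT1 KO. The lowest heart labelled SIRT1 KO lay just above the highest WT heart, so the groups did not overlap. The exact two-sided permutation test gave p = 0.0286, the smallest that 4 against 4 hearts allow, and the limma fit gave a difference of 0.14 (standard error 0.08, adjusted p = 0.340). That difference was 0.0119 with median scaling and -0.0748 with no scaling. The second *Rbm24* probe (A_51_P487832) did not show that separation. It read 2.65, 3.17, 2.70 and 2.63 in the WT hearts and 3.01, 2.64, 2.57 and 2.68 in the hearts labelled SIRT1 KO, a difference of -0.06 (adjusted p = 0.845). WT replicate 2 was the lowest heart on the first probe and the highest on the second, and without it the second probe differed by 0.07.

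*Rbfox1* and *Rbfox2* encode sister proteins that bind a short motif in introns and promote or repress the neighboring exon according to the side on which they sit. The single *Rbfox1* probe (A_51_P508864) read -0.31, -0.31, -0.42 and -0.24 in the WT hearts and -0.22, -0.50, -0.40 and -0.48 in the hearts labelled SIRT1 KO. The highest value of all belonged to a heart labelled SIRT1 KO and so did the lowest. The difference was -0.08 (standard error 0.08, adjusted p = 0.614 from limma). The *Rbfox2* probes gave -0.08 (A_52_P310530, adjusted p = 0.694) and -0.11 (A_52_P528592, adjusted p = 0.774), and both overlapped between genotypes. The second of them had the widest interval of the pair, -0.54 to 0.32, and WT replicate 2 was its highest heart at 0.37, while the other WT hearts lay between -0.50 and -0.19.

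*Mbnl1* and *Mbnl2* encode the muscleblind zinc-finger proteins, which are lost from their targets in myotonic dystrophy when RNA repeats trap them. *Mbnl2* had like values on its probes, with differences of -0.08 (A_51_P494361, standard error 0.07, adjusted p = 0.584) and -0.09 (A_51_P189269, standard error 0.08, adjusted p = 0.561). On the first it read 2.90, 2.92, 2.95 and 3.02 in the WT hearts and 2.85, 2.78, 2.86 and 2.99 in the hearts labelled SIRT1 KO. Of the hearts labelled SIRT1 KO, 3 lay below every WT heart. The brighter *Mbnl1* probe (A_51_P428345) gave 2.39 ± 0.08 (SD, n = 4) and 2.32 ± 0.17 (SD, n = 4), a difference of -0.08 (adjusted p = 0.686).

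The other *Mbnl1* probe (A_52_P140981), assigned to a predicted transcript record, had the largest difference among the 21 and lay near the background. It read -5.43, -5.30, -4.55 and -5.41 in the WT hearts and -4.81, -4.29, -4.52 and -4.81 in the hearts labelled SIRT1 KO. WT replicate 3 lay among the hearts labelled SIRT1 KO, the other 3 WT hearts lay below all of them, and WT replicate 4 was not well above background. The difference was 0.57 (standard error 0.21, adjusted p = 0.165 from limma), with 95% confidence limits of 0.09 and 1.04. Without WT replicate 3 it was 0.78 and passed the threshold (adjusted p = 0.0316), and with another background correction it was 0.33 and passed (adjusted p = 0.0310).

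*Mbnl1* has 2 start sites in the RefSeq promoters of GRCm38.p6, and their upstream windows differ in base composition. They are shown because the probes of this gene, assigned to different transcript records, had fold changes of opposite sign. Of the 9 regulators with more than 1 probe, 7 had probes that differed in sign. Neither *Mbnl1* probe was tied to a start here. The 250 bases before the upstream start, on the plus strand at chr3:60472580-60472829, hold 38.0% G or C, 2 CCAAT boxes and 2 overlapping matches to the TATA box. The 250 bases before the downstream start, on the plus strand at chr3:60500929-60501178, hold 73.6% G or C and 4 GC boxes. Capitals mark these matches.
Mbnl1 upstream start: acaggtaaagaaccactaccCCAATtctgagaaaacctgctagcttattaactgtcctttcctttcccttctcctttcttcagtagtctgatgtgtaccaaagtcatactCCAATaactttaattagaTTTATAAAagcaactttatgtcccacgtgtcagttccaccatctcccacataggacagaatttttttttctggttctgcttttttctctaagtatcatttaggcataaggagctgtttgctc
Mbnl1 downstream start: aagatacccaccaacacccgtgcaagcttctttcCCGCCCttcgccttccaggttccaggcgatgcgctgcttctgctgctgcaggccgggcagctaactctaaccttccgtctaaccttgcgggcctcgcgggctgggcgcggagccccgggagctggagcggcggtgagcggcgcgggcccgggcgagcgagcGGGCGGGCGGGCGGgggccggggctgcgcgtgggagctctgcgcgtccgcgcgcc

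Both strands were searched, and overlapping matches were counted. The GC box was searched as GGGCGG, which 32.7% of 32851 mouse promoter windows of this length hold. The CCAAT box, searched by the letters of its name, is in 33.8% of them. The TATA box was searched as TATAAA, which 12.4% hold. A match is a run of letters and not evidence that a factor binds. Of the 10 genes, 8 have a window in the table used, all but *Rbm20* and *Rbfox2*.

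*Celf1* encodes a protein that binds GU-rich RNA, holds fetal splice forms and falls in amount after birth in the heart. Its 3 probes had unlike differences, and none passed the threshold. The middle one (A_51_P204845) read 2.06, 1.90, 1.94 and 1.91 in the WT hearts and 2.39, 2.32, 2.15 and 2.14 in the hearts labelled SIRT1 KO. All hearts labelled SIRT1 KO lay above all WT hearts. The difference was 0.30 (standard error 0.09, 95% confidence interval 0.11 to 0.49), with an adjusted p of 0.0824 from limma, the smallest among the 21 probes, and an exact permutation p of 0.0286. It was 0.17 with median scaling (adjusted p = 0.206) and 0.08 with no scaling (adjusted p = 0.626). With array weights it was 0.35 and passed (adjusted p = 0.0264).

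The dimmest *Celf1* probe (A_52_P551887) had a difference of the opposite sign. It read -0.63, -0.62, -0.63 and -0.65 in the WT hearts and -0.69, -0.75, -0.76 and -0.81 in the hearts labelled SIRT1 KO. All hearts labelled SIRT1 KO lay below all WT hearts, at a difference of -0.12 (standard error 0.06, adjusted p = 0.319 from limma, exact permutation p = 0.0286). The brightest *Celf1* probe (A_51_P431558) gave 3.58 ± 0.07 (SD, n = 4) and 3.62 ± 0.07 (SD, n = 4), a difference of 0.04 (adjusted p = 0.782), with overlap. The 2 brighter probes are assigned to the same transcript record and the dimmest to another.

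Whether the probes of a gene moved differently between the genotypes was tested with limma's diffSplice, an F test per gene over the 5019 genes with at least 2 tested probes, of which 64 (1.28%) passed. Among the 9 regulators with more than 1 probe, *Celf1* passed (adjusted p = 0.0415) and the other 8 did not, while 3 of the 9 had an unadjusted p under 0.05, against 11.2% of all genes. The next smallest adjusted p-values were 0.300 for *Mbnl1* and 0.422 for *Srsf1*. The middle *Celf1* probe stood 0.34 above the others of its gene (adjusted p = 0.0384), and the dimmest stood below them by -0.29 (adjusted p = 0.0966). Within each array, the middle minus the dimmest probe, relative to the WT mean of that difference, lay between -0.07 and 0.10 in the WT hearts and between 0.33 and 0.50 in the hearts labelled SIRT1 KO. The brightest minus the middle probe, which share a transcript record, differed by -0.26 between genotypes, and the brightest minus the dimmest by 0.16. These pairs were looked at because *Celf1* had passed, and each is fixed by the other two, so they are a description with no test: none overlapped between genotypes, which held for 10.6% of the 8592 probe pairs of all genes.

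The count of 64 genes was itself unsteady, at 36, 33, 25 and 42 without WT replicates 1 to 4, 37, 30, 67 and 65 without SIRT1 KO replicates 1 to 4, 38 with no scaling, 129 with array weights and 100 of 6836 with no filter on dim probes, and it was between 44 and 79 in the other alternatives. The *Celf1* call lay close to its threshold. It held in 6 of 18 alternatives. Of the hearts left out in turn, it held without SIRT1 KO replicate 4 (adjusted p = 0.0425) and was lost without any other: the adjusted p was 0.0633, 0.184, 0.163 and 0.193 without WT replicates 1 to 4 and 0.114, 0.233 and 0.0529 without SIRT1 KO replicates 1 to 3. It was also lost with the samples blocked by replicate number (adjusted p = 0.0551).

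**Figure D3:**
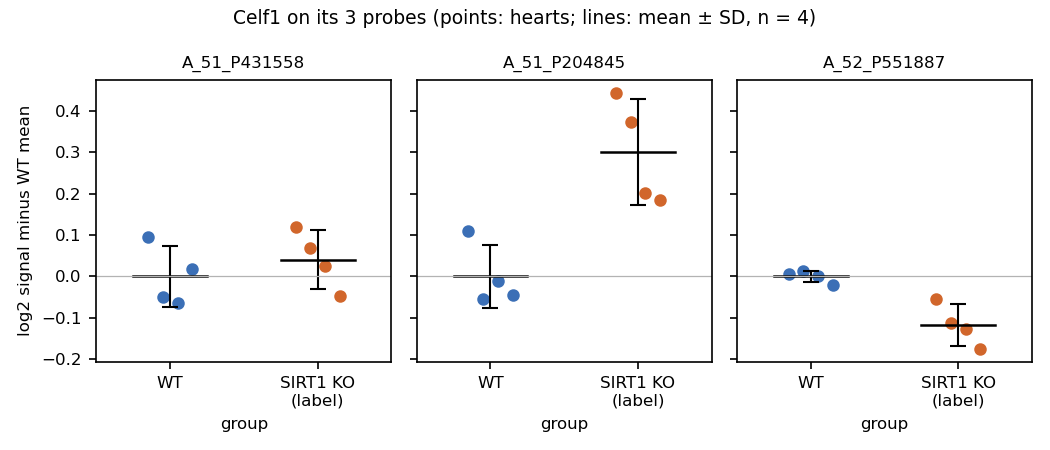
The 3 *Celf1* probes in each heart, as the log2 signal minus the mean of the 4 WT hearts on that probe; points are hearts (blue WT, orange labelled SIRT1 KO) and lines with bars are the mean ± SD (n = 4). The hearts labelled SIRT1 KO lie above WT on A_51_P204845 and below WT on A_52_P551887, and overlap WT on A_51_P431558.

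The table of RefSeq promoters gives *Celf1* a single start. The 250 bases before it, on the plus strand of chr2:90940147-90940396 in GRCm38.p6, hold 72.4% G or C, 4 GC boxes, shown in capitals, and neither of the other motifs. The window is shown because *Celf1* was the gene whose probes parted.
Celf1: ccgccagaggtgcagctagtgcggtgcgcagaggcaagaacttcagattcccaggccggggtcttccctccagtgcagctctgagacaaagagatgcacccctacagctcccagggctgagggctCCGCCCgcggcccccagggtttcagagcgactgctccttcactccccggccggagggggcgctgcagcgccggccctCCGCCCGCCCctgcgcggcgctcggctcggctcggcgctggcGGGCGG

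*Celf2*, the paralog of *Celf1* that is also active in heart, had small differences on its 3 probes. The brightest (A_51_P182471) read 1.60, 1.58, 1.55 and 1.29 in the WT hearts and 1.58, 1.52, 1.47 and 1.70 in the hearts labelled SIRT1 KO. The lowest heart was WT replicate 4 and the highest was a heart labelled SIRT1 KO. The difference was 0.06 (standard error 0.09, adjusted p = 0.739 from limma), and -0.01 without WT replicate 4. The other probes differed by -0.13 (A_52_P100909, adjusted p = 0.422) and 0.07 (A_52_P243542, adjusted p = 0.710), and their genotypes overlapped.

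*Srsf1*, the founding SR protein, which recruits the spliceosome to exons and is needed for the switch of calcium/calmodulin kinase isoforms in the heart, was nearly level on its brighter probe. That probe (A_51_P485899) read 3.95, 3.85, 3.75 and 3.84 in the WT hearts and 3.79, 3.88, 3.74 and 3.88 in the hearts labelled SIRT1 KO. The groups overlapped throughout, and their means differed by -0.02 (standard error 0.07, adjusted p = 0.889 from limma), with 95% confidence limits of -0.19 and 0.15. The dimmer *Srsf1* probe (A_52_P525674), assigned to another transcript record, read -0.87, -1.20, -1.10 and -1.18 in the WT hearts and -0.98, -0.78, -0.83 and -0.85 in the hearts labelled SIRT1 KO. There, 3 of the 4 hearts labelled SIRT1 KO lay above every WT heart, and WT replicate 1 lay above the fourth. The difference was 0.23 (standard error 0.09, adjusted p = 0.198), with an exact permutation p of 0.0571.

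*Ptbp1*, the repressor that keeps muscle and neuronal exons out of transcripts in other cells, read 2.56, 2.64, 2.49 and 2.61 in the WT hearts and 2.57, 2.55, 2.56 and 2.47 in the hearts labelled SIRT1 KO on its brighter probe (A_51_P462692). The groups overlapped. The difference was -0.04 (standard error 0.07, adjusted p = 0.793 from limma), with 95% confidence limits of -0.19 and 0.12. The dimmer *Ptbp1* probe (A_52_P234619) differed by 0.11 (standard error 0.10, adjusted p = 0.534). Of the 9 genes with more than 1 probe, *Rbfox2* and *Mbnl2* had the same sign on all their probes, and the probes of the other 7 differed in sign.

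The wider splicing machinery, taken on the brightest probe of each gene, had no difference past the threshold in 4 of 5 lists, against 4.58% of the 13594 genes tested this way. The regulators' paralogs, the SR and SR-related factors, the hnRNPs and other regulators, and the spliceosome core had 0 of 7, 0 of 20, 0 of 39 and 0 of 31 tested genes called. At an unadjusted p under 0.05 the shares were 28.6%, 15%, 12.8% and 9.68%, against 20.4% of all genes. The median fold changes were 0.01, 0.13, 0.02 and -0.08, against -0.01 for all genes. Among the SR and SR-related factors 13 were higher and 7 lower, and in the spliceosome core 9 were higher and 22 lower. Scaling each array on its median, or not at all, shifts every gene by 1 amount, so these counts depend on the scaling. With median scaling, where 7.43% of all probes passed, *Mbnl3*, *Srsf10*, *Tardbp*, *Raver2* and *Snrpb2* passed. With no scaling, where 24.8% of all probes passed, these genes passed along with others, among them many of the spliceosome core.

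Among the paralogs, *Mbnl3*, the muscleblind gene of immature muscle cells, read -3.36, -3.73, -2.96 and -3.43 in the WT hearts and -3.58, -4.71, -4.18 and -4.65 in the hearts labelled SIRT1 KO. Of the latter, 3 lay below every WT heart and SIRT1 KO replicate 1 lay among them. The difference was -0.91 (standard error 0.26, adjusted p = 0.0831 from limma), and without SIRT1 KO replicate 1 it was -1.14 and passed the threshold (adjusted p = 0.0251). It also passed with the replicate block (adjusted p = 0.0494), median scaling (adjusted p = 0.0452), no scaling (adjusted p = 0.0212) and array weights (adjusted p = 0.0474). With another background correction it was -0.27 and did not pass (adjusted p = 0.233). *Celf3*, a CELF gene known mostly from neurons, differed by 0.54 (standard error 0.20, adjusted p = 0.164). It passed without SIRT1 KO replicate 4 (0.74, adjusted p = 0.0301), with that background correction (0.37, adjusted p = 0.0380) and with array weights (0.67, adjusted p = 0.0433). With quantile normalization the difference was 0.35 and did not pass (adjusted p = 0.342). *Celf5* and *Celf6* stayed near background in all hearts.

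In the other lists, the RNA-binding proteins *Tial1* and *Tia1*, which aid recognition of weak splice sites, differed by 0.30 (adjusted p = 0.0805) and 0.38 (adjusted p = 0.0900). The SR protein *Srsf10* differed by -0.33 (adjusted p = 0.121) and the muscle SR kinase *Srpk3* by 0.29 (adjusted p = 0.171). In the spliceosome core, *Sf3a2*, a protein of the U2 particle, differed by 0.46 (adjusted p = 0.0737) and *Snrpb2*, which belongs to the same particle, differed by -0.29 (adjusted p = 0.0921). These are the genes with the smallest p of each list, and none passed the threshold in the limma fit. Without SIRT1 KO replicate 3, *Tia1* (0.47, adjusted p = 0.0202) and *Snrpb2* (-0.35, adjusted p = 0.0379) passed. *Snrpb2* and *Srsf10* also passed with median scaling, no scaling or another background correction, *Snrpb2*, *Tia1* and *Sf3a2* with array weights, and *Sf3a2* with that background correction, while with quantile normalization *Sf3a2* differed by 0.28 (adjusted p = 0.258).

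**Figure D4:**
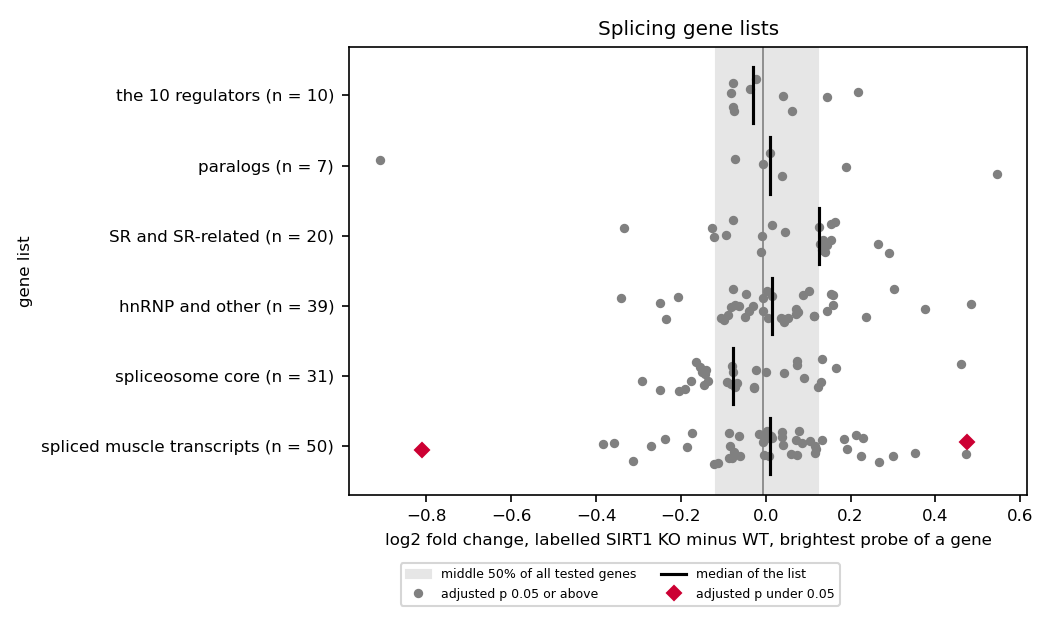
Fold change on the log2 scale of the brightest probe of each gene, 1 point per gene, for the 10 regulators and 5 related lists; black bars are list medians, the grey band the middle 50% of all tested genes (-0.12 to 0.12), and red diamonds the genes past the threshold. The 10 regulators lie between -0.08 and 0.22, and the diamonds are *Neb* and *Camk2g*.

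Transcripts that the regulators are known to splice in muscle held both of the genes past the threshold, 1 higher and 1 lower of 50 tested, against 3.69% of all genes higher and 0.897% lower. *Neb*, which encodes the thin-filament ruler nebulin and is best known from skeletal muscle, read -3.35, -3.62, -3.76 and -3.77 in the WT hearts and -4.50, -4.32, -4.62 and -4.30 in the hearts labelled SIRT1 KO. All hearts labelled SIRT1 KO lay below all WT hearts, and *Neb* fell by 0.81 on the log2 scale (standard error 0.12, adjusted p = 0.00621 from limma). With another background correction the difference was -0.21 and did not pass (adjusted p = 0.0996). *Camk2g*, the gamma isoform gene of calcium/calmodulin kinase, rose by 0.47 (standard error 0.08, adjusted p = 0.00955), with WT hearts between 3.29 and 3.43 and hearts labelled SIRT1 KO between 3.72 and 3.95. With no scaling it differed by 0.26 and did not pass (adjusted p = 0.0880). The median of the list was 0.01, and 13 of 50 genes (26%) had an unadjusted p under 0.05, against 20.4% of all genes. Without SIRT1 KO replicate 3, 5 genes of the related lists passed in place of 2.

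Of the 33 such transcripts with at least 2 tested probes, *Slc8a1* passed the test for probe differences (adjusted p = 0.00643), 1 of 33 against 1.28% of all genes. Of the other 4 lists together 0 of 48 passed. At an unadjusted p under 0.05 there were 5 of 33 and 3 of 48, against 11.2% of all genes. *Slc8a1* encodes the sodium-calcium exchanger that clears calcium from cardiomyocytes, and it has 7 probes. The brightest (A_51_P277373) differed by -0.00 (standard error 0.08, adjusted p = 0.992). A_52_P562704, which read 1.27, 1.16, 1.15 and 1.25 in the WT hearts and 0.98, 0.86, 1.06 and 0.95 in the hearts labelled SIRT1 KO, differed by -0.25 (adjusted p = 0.0962). The dimmest probe (A_52_P313284) read -3.22, -3.22, -3.48 and -3.41 in the WT hearts and -2.89, -2.95, -2.98 and -2.95 in the hearts labelled SIRT1 KO. The genotypes overlapped on neither of these 2 probes (13.7% of all probes, 8.63% higher and 5.11% lower) and differed in opposite directions.

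The dimmest *Slc8a1* probe rose by 0.39 (standard error 0.08, adjusted p = 0.0321 from limma), and the next dimmest (A_52_P313285), which is assigned to the same noncoding transcript record, differed by 0.35 (standard error 0.11, adjusted p = 0.106). The probes assigned to coding records lay between -0.25 and 0.04. The test for probe differences passed in 14 of 18 alternatives, and it was lost without WT replicate 1 (adjusted p = 0.0591), WT replicate 3 (adjusted p = 0.0793) or SIRT1 KO replicate 2 (adjusted p = 0.123) and with quantile normalization (adjusted p = 0.0651). The exons that each probe reads were not analysed here, so none of these differences is a measure of exon inclusion.

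**Figure D5:**
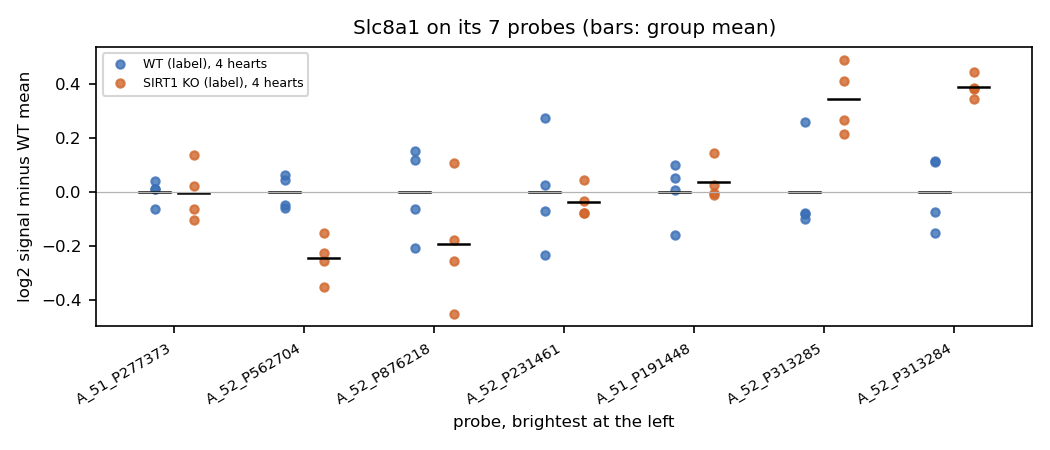
The 7 *Slc8a1* probes, from the brightest to the dimmest, in each heart, as the log2 signal minus the mean of the 4 WT hearts on that probe; blue points are WT hearts, orange points hearts labelled SIRT1 KO, and black bars group means. The hearts labelled SIRT1 KO lie below WT on A_52_P562704 and above WT on A_52_P313284.

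Markers of other cells moved with the genotype in places, and their part in the values above was not tested. Of the markers named below as rising, *Myog*, *Sox10* and *Hbb-y* were dim, with mean WT signals of -5.46, -4.69 and -3.80. *Myog* was well above background in 3 of the 4 WT hearts, and *Tnni2* was brighter, at 1.87. With no filter on dim probes the median fold change of all probes was 0.09, against 0.01 with it. The part of low signal in these rises was not tested. Of 12 skeletal muscle markers, 7 were tested, 5 of them higher and 2 lower, and *Tnni2* (0.62, adjusted p = 0.0225 from limma) and *Myog* (0.52, adjusted p = 0.0291) rose, while *Myf5*, *Myf6* and *Pax7* were well above background in none of the hearts. The summed signal of the list was 149 to 179 times the 75th percentile in the WT hearts and 154 to 187 times in the hearts labelled SIRT1 KO. Of 16 neuron and glia markers, 7 were tested, 6 of them higher, and *Sox10* rose (0.80, adjusted p = 0.0199), with a summed signal of 1.10 to 1.30 against 1.25 to 1.41 times the 75th percentile and 7 markers, such as *Snap25* and *Th*, well above background in none of the hearts. Of 10 erythroid genes 5 were tested, 2 higher and 3 lower, and the embryonic globin *Hbb-y* rose (0.92, adjusted p = 0.00782), with a summed signal of 220 to 261 against 174 to 216 times the 75th percentile. The smooth muscle, endothelial, fibroblast and epicardial, macrophage, and T and B lymphocyte lists had 0 genes past the threshold, against 4.58% of all genes (3.69% higher and 0.897% lower), with 5 of 6, 9 of 10, 7 of 11, 4 of 10 and 2 of 3 tested genes lower. Their summed signals were 145 to 179, 55.7 to 61.6, 297 to 346, 3.95 to 5.83 and 0.207 to 0.254 times the 75th percentile in the WT hearts. In the hearts labelled SIRT1 KO they were 136 to 191, 48.7 to 60.5, 285 to 341, 3.61 to 6.06 and 0.205 to 0.230 times. At an unadjusted p under 0.05 these lists had 1 of 6, 1 of 10, 1 of 11, 2 of 10 and 2 of 3 tested genes, against 20.4% of all genes. The skeletal muscle, neuron and glia, and erythroid lists had 5 of 7, 5 of 7 and 3 of 5, and the cardiomyocyte list had 2 of 15, with 0 past the threshold.

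The gene patterns most like that of *Celf1* A_51_P204845 over the 8 arrays, among the brightest probes of 13535 genes, were those of *Ulk3* (Pearson r = 0.983), *Agmo* (r = 0.982) and *Mef2a* (r = 0.979), as a description with no test of likeness. *Agmo* was higher by 1.497 (adjusted p = 0.0128 from limma), and *Ulk3* differed by 0.48 (adjusted p = 0.0602). *Mef2a*, a muscle transcription factor whose transcript is itself spliced by the regulators, differed by 0.19 (standard error 0.08, adjusted p = 0.192 from limma).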

How the data were processed

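Hearts of 4 WT and 4 SIRT1 KO embryos (E18.5) were each measured on a one-color Agilent array. The authors deposited the intensity of each spot after background subtraction by Feature Extraction (version 12.0.0.7 in the file headers, 12 in the submitters' processing notes), unscaled between arrays. The deposited series value table holds the same intensity values in 100% of the spots. Here log2 of the intensity was taken, the 75th percentile of each array over non-control spots was subtracted, and spots of a probe were averaged without outlier spots. Transcript accessions were matched to RefSeq gene names of GRCm38.p6, which named 28223 of 41174 probes (68.5%).

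The 25615 probes that were above background, by Agilent's flag, on 4 or more arrays were tested with limma 3.58.1 in R 4.3.3 (lmFit, eBayes and diffSplice), with Benjamini-Hochberg adjustment at 0.05 over all probes or genes. Single probes also had the exact two-sided permutation test. A gene with several probes is represented in the lists by the one with the highest mean signal. Scripts ran in Python 3.11.15 (numpy 2.4.6, pandas 2.3.3, matplotlib 3.10.9). Each array had 59.5% to 64.9% of its probes above background, and precision is limited by the number of arrays.

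The 10 genes, the 5 related lists and the 9 cell type lists were chosen with earlier results of these data known. Named are all probes of the 10 genes, the genes past the threshold of each related list or otherwise the 2 with the smallest p, the genes past the threshold for probe differences, *Sirt1*, and the 3 genes most like the probe with the smallest p. *Ttn* and the marker genes past the threshold were named after their values were seen. The fits were tested on simulated data with normal noise and shifts of 1 on the log2 scale. The shifts were put in 200 probes, or in 1 probe of each of 200 genes. Limma recovered 84.5% of them, the methods' analysis of variance 68% and diffSplice 85.5%. False calls were 7.14%, 5.56% and 5% of the calls. Smaller shifts were not simulated, and the largest difference among the 21 probes was 0.57. Alternatives covered background correction, scaling, filter, outlier spots, the methods' analysis of variance, array weights, a replicate block, the series value table and each heart left out in turn. Normexp on the median signal was chosen after seeing the data.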

Additional observations from a re-analysis of the deposited data

Results flagged for a closer look

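In 6 of 90 groups of 4 hearts, 1 heart stood farther from the rest than Dixon's 95% limit, against about 1 in 20 by chance, and 4 of the 42 groups of the regulators' probes were among them. WT replicate 2 was low on *Rbm24* A_52_P920158 (4.37, the others 4.55 to 4.57) and high on *Rbm24* A_51_P487832 (3.17, the others 2.63 to 2.70). WT replicate 3 was high on *Mbnl1* A_52_P140981 (-4.55, the others -5.43 to -5.30). WT replicate 4 was low on *Celf2* A_51_P182471 (1.29, the others 1.55 to 1.60). Outside the regulators, WT replicate 2 was high on *Srsf10* A_52_P250968 (1.31, the others 0.99 to 1.01) and WT replicate 4 on *Slc8a1* A_52_P313285 (-2.90, the others -3.26 to -3.23). All 6 are WT hearts, and the causes were not tested.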

How the results depend on the processing

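There were 19 alternatives, 8 of them leaving out 1 heart. The count of regulator probes past the threshold, 0 as reported, was 1 with normexp on the median signal (*Mbnl1* A_52_P140981), 4 with no scaling (both *Mbnl2* probes, *Celf1* A_52_P551887 and *Celf2* A_52_P100909), 1 with array weights (*Celf1* A_51_P204845) and 0 to 1 with a heart left out. Over all probes the count was 1250 as reported, 2566 with normexp, 1904 with median scaling, 6352 with no scaling, 546 with the methods' analysis of variance, 2277 with array weights, and 657 (without WT replicate 3) to 1825 (without SIRT1 KO replicate 3) with a heart left out. The regulator probes that were higher numbered 9 as reported, 5 with median scaling, 3 with no scaling and 8 to 11 with a heart left out. The related lists had 2 genes past the threshold as reported, 7 with normexp, 11 with median scaling, 35 with no scaling, 8 with array weights and 2 to 5 with a heart left out. The number of regulators with probe differences, 1 as reported, was 0 with normexp, median scaling, no scaling or only probes above background on all 8 arrays, and 0 to 1 with a heart left out.

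The median fold change of all probes was 0.01 as reported, -0.12 with median scaling and -0.21 with no scaling, and the share of higher probes among the calls was 81.4%, 35.5% and 10.1%, and 63.9% with quantile normalization. Against these shifts, the sign turned with median scaling for *Celf1* A_51_P431558 (-0.0920), *Celf2* A_51_P182471 (-0.0712), *Celf2* A_52_P243542 (-0.0598) and *Ptbp1* A_52_P234619 (-0.0201). With no scaling it turned for these probes (-0.18, -0.16, -0.15 and -0.11) and for *Rbm20* A_52_P598492 (-0.0017) and *Rbm24* A_52_P920158 (-0.0748). It turned for *Srsf1* A_51_P485899 with quantile normalization (0.0053) and array weights (0.0109), and for *Rbfox2* A_52_P528592 with array weights (0.0005). With a heart left out, it turned for *Rbm20* A_52_P642626 (-0.10 to 0.0485), *Rbm24* A_51_P487832 (-0.15 to 0.0671), *Rbfox2* A_52_P528592 (-0.23 to 0.0633), *Celf2* A_51_P182471 (-0.0101 to 0.0949) and *Srsf1* A_51_P485899 (-0.0558 to 0.0126). Median scaling and no scaling subtract 1 amount from every probe, so they can only turn a difference above 0, and the other causes were not tested.

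Replicate numbers were not taken as pairs. The correlation of the deviations of same-numbered hearts was 0.204, 0.207, 0.0562 and 0.141, and every heart correlated best with its own number. Whether same-numbered hearts shared a factor was not tested. With the replicate block 0 regulator probes and 1185 of all probes passed, and the number of regulators with probe differences was 0. Normexp on the mean signal and a choice of probes by gene name were not run, because the columns they need were not in the files used here.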
